A study of Mus musculus with 18 samples.

Results

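The C/EBP (CCAAT/enhancer-binding protein) transcription factor family was followed across all 6 groups of a mouse basophil and mast cell microarray series. Its members were taken as the genes whose platform symbol is Cebpa, Cebpb, Cebpd, Cebpe or Cebpg, with the brightest probe kept where a gene had several. All 5 were on the array with 1 probe each, out of 19084 genes with a named probe. The series compared basophils with mast cells and then removed Cebpa from basophils, to find the genes that depend on it. Every group held 3 arrays of C57Bl/6 total RNA, 18 in all. Treated floxed basophils were Cebpa f/f and carried the RosaYFP/creER alleles, and were kept for 5 days in IL-3 at 20 ng/ml with 100 nM 4-hydroxytamoxifen, the drug that activates creER. Untreated floxed basophils had the same alleles and the same 5 days in IL-3 without the drug. Treated wild-type basophils were Cebpa +/+ with the same RosaYFP/creER alleles, the same culture and the same drug. Untreated wild-type basophils were their drug-free counterpart. Fresh basophils came straight from the bone marrow of mice given IL-3 in complex with an anti-IL-3 antibody 3 days earlier, and mast cells were bone marrow cells grown for 4 weeks in IL-3 at 20 ng/ml. The labels give no Cebpa or creER genotype for these last groups. Nor do they name the mouse or culture behind each replicate. The p-values therefore rest only on how far arrays scatter within all 6 groups, a scatter that may be technical. The sources used here do not say which cell types creER was active in, nor whether treated cells were sorted for YFP.

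C/EBP proteins are basic leucine zipper (bZIP) factors that bind DNA as dimers with one another or with related zipper proteins. In blood formation C/EBPα directs myeloid progenitors towards granulocytes, and C/EBPε acts later, in the formation of granules. C/EBPβ and C/EBPδ are known for induction by cytokines and inflammatory signals, and C/EBPγ, which has no activation domain of its own, works mainly through its dimer partners. In basophil and mast cell development C/EBPα is known as a factor of the basophil branch and MITF as one of the mast cell branch.

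Promoters of the members are shown because some members moved together and others apart, and because C/EBP genes are known targets of zipper factors. RefSeq on GRCm38.p6 gave the 250 bases before the gene start for Cebpa, Cebpb and Cebpg, 3 of the 5 members. Each is printed 5′ to 3′ on the strand of its gene. Capitals mark matches on either strand to TTGCG, part of the palindrome bound by C/EBP dimers, to TGACG, part of the cyclic AMP response element bound by CREB and ATF zippers, or to the CCAAT box. No match overlapped another.
Cebpa, chr7:35119043-35119292, plus strand: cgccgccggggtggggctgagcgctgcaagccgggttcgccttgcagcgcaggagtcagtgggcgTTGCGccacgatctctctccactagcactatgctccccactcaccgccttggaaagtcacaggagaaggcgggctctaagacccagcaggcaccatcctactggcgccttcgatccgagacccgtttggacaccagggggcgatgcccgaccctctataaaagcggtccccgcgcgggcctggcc
Cebpb, chr2:167688665-167688914, plus strand: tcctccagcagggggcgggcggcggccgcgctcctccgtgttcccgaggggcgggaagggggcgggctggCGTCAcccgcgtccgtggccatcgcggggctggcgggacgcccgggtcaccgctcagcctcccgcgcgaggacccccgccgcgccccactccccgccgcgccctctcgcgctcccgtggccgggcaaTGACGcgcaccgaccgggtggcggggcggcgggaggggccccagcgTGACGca
Cebpg, chr7:35056567-35056816, minus strand: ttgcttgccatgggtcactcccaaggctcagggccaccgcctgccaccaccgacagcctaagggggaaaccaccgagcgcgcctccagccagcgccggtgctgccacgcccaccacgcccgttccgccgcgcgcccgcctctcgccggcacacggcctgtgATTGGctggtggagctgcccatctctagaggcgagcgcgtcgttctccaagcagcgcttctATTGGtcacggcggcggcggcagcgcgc
The Cebpa promoter held 1 TTGCG, which began 185 bases before the gene start, and neither of the other motifs. The Cebpb promoter held 3 TGACG matches, beginning 180, 53 and 7 bases before the start, the farthest of them on the other strand. The Cebpg promoter held 2 CCAAT boxes on the other strand, where they read ATTGG, beginning 89 and 28 bases before the start. Among 32851 mouse promoters of the same length, 14.5% held TTGCG, 17.8% held TGACG and 33.8% held CCAAT. All 3 promoters were richer in G and C than the median promoter, with 66.4% for Cebpa, 81.6% for Cebpb and 70.8% for Cebpg against 52.4%. A match describes letters in these windows and is not evidence of binding.

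Array intensities were compared after quantile normalisation of all 18 arrays. Differences are given as log2 of the intensity plus 16, with the standard error (SE) and limma's p-value adjusted over all 26423 probes. A difference was called at an adjusted p under 0.05, and a probe under 30 on every array of a group was taken as at background there. A drug effect here means treated minus untreated. In wild-type basophils it joins the drug with creER activity, and in floxed basophils also with the removal of Cebpa. Within a genotype these cannot be told apart. Between 47.3% and 54.8% of probes per array lay above 30. Arrays of the same group correlated at 0.983 to 0.9918 over the probes whose mean normalised intensity exceeded 100. The basophil label was checked with 7 markers, whose summed intensity was 122262 to 126765 in fresh basophils and 52645 to 55649 in mast cells. Of the 7, 5 were higher in fresh basophils, among them Prss34, a basophil serine protease, at 45013 ± 767 against 1525 ± 97.5 in mast cells (SD, n = 3 each), 1 was lower and 1 was not called. The mast cell label was checked with 7 markers, whose summed intensity was 114805 to 119935 in mast cells and 9961 to 11328 in fresh basophils. Of these markers 6 were lower in fresh basophils and 1 was higher. In this comparison of fresh basophils with mast cells 40.6% of all probes and 59.2% of those above background in a group were called. The basophil markers summed to 115981 to 124279 in treated floxed basophils and 131760 to 136496 in treated wild-type basophils, where 1 of the 7 was higher, 2 (Prss34 and Itga2) were lower and 4 were not called. Of all probes 30.7% were called there. These sums are weighted to the brightest markers. Mcpt8 averaged 50584 ± 5701 in treated floxed and 48201 ± 2377 in treated wild-type basophils, whereas Prss34 averaged 20028 ± 992 against 46128 ± 2702 (SD, n = 3 each). Markers of other cells also differed between the groups. The sum of 7 neutrophil markers was 81166 to 84067 in fresh basophils, with only S100a8 at background, and 510 to 557 in mast cells. It was 1238 to 1417 in treated floxed basophils, where S100a8, Ngp and Elane were at background, against 8746 to 8842 in treated wild-type basophils. The sum of 5 monocyte and macrophage markers was 13991 to 16132 in fresh basophils and 252 to 309 in mast cells. In these bulk samples fewer cells of a type and less RNA per cell cannot be told apart.

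**Figure D1:**
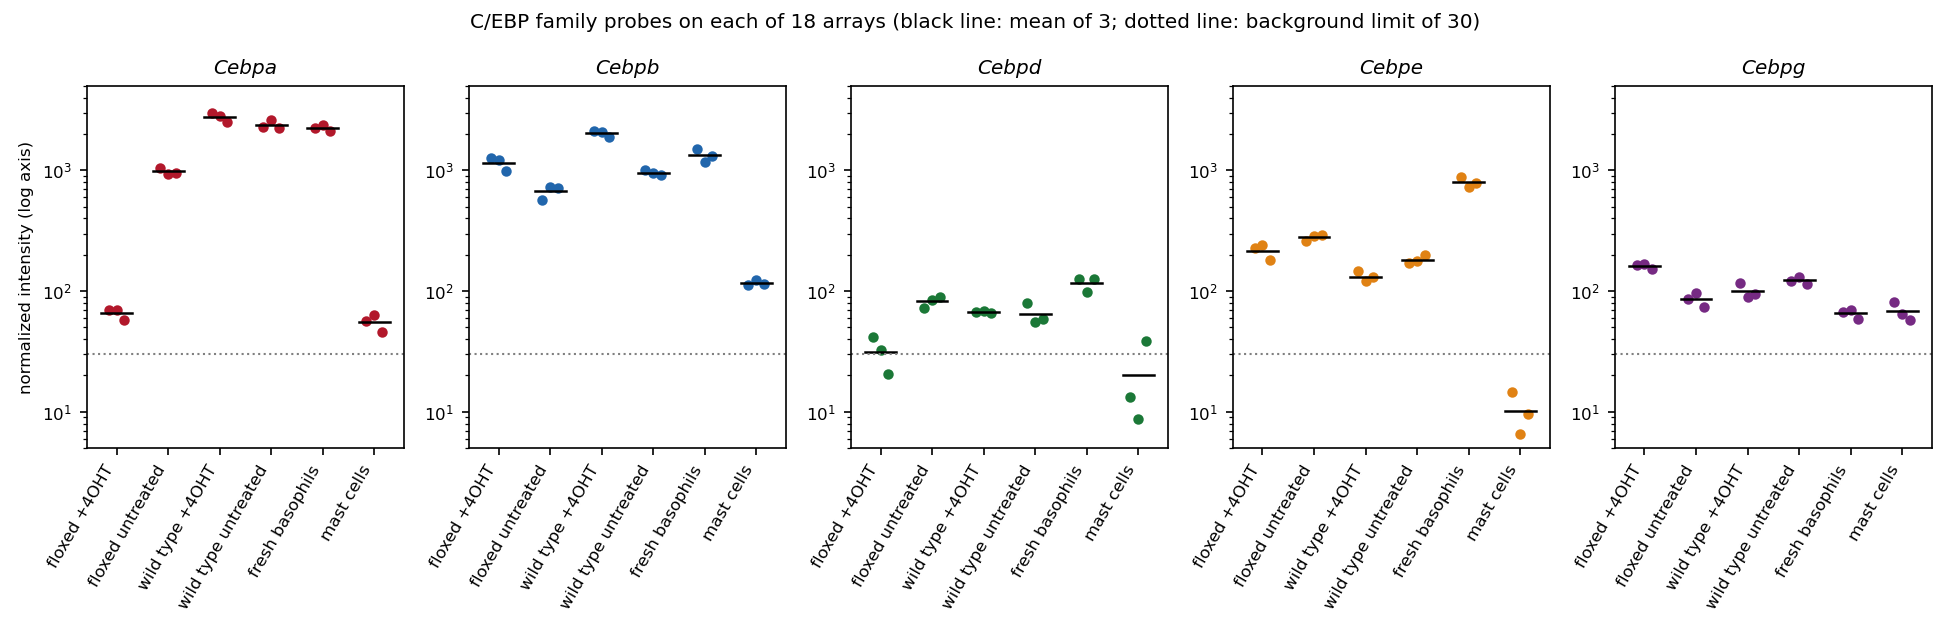
Normalised intensity (log scale) of the 5 C/EBP members on each of the 18 arrays, by group, with points for arrays and a bar for the mean of 3. Cebpa falls to 57.8 to 69.4 in treated floxed basophils, beside 45.7 to 63.8 in mast cells, while Cebpb, Cebpe and Cebpg remain above their mast cell values.

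Cebpa, the founding member and the gene removed here, was high in wild-type and fresh basophils and low in treated floxed basophils and mast cells. Its intensities were 69.1, 69.4 and 57.8 in treated floxed basophils and 1055, 935 and 959 in untreated floxed basophils. They were 2973, 2822 and 2539 in treated wild-type basophils and 2280.2, 2602 and 2226 in untreated wild-type basophils. Fresh basophils had 2232, 2393 and 2105, and mast cells 56.8, 63.8 and 45.7. The groups thus fell into 3 tiers. Both wild-type groups and the fresh basophils overlapped as neighbours at the top, untreated floxed basophils stood alone, and treated floxed basophils overlapped mast cells. All 3 arrays of treated floxed basophils lay below all others of the cultured basophils. The position of the probe relative to the deleted part of Cebpa was not known here, so its level is a check of the label only if the probe lies within it.

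Treated floxed basophils had 2.36% of the Cebpa intensity of treated wild-type basophils, 65.5 ± 6.60 against 2778 ± 220.0 (SD, n = 3 each), a log2 difference of -5.10 ± 0.11 (SE, adjusted p = 8.98e-15). Against untreated floxed basophils it fell by 3.62 ± 0.11 on the log2 scale (adjusted p = 7.47e-13). In wild-type basophils the drug effect on Cebpa was 0.23 ± 0.11 (adjusted p = 0.161), with a 95% interval from 0.00 to 0.46. The difference between these drug effects was itself called, at -3.85 ± 0.15 (adjusted p = 9.04e-11). The level was lower in floxed basophils even without the drug. Untreated floxed basophils had 41.5% of the intensity of untreated wild-type basophils, 983 ± 63.5 against 2369 ± 204 (SD, n = 3 each), a difference of -1.25 ± 0.11 (adjusted p = 3.84e-07). The floxed allele and differences between mice or cultures cannot be told apart in that comparison. Cebpa was higher in fresh basophils than in mast cells by 4.99 ± 0.11 (adjusted p = 3.49e-16) and higher in untreated wild-type basophils than in mast cells by 5.07 ± 0.11 (adjusted p = 4.17e-16). Between treated floxed basophils and mast cells the difference was 0.19 ± 0.11 (adjusted p = 0.19), with a 95% interval from -0.035 to 0.42. Cebpa did not pass the test between cultured untreated wild-type and fresh basophils either, at 0.08 ± 0.11 (adjusted p = 0.661) and a 95% interval from -0.15 to 0.31.

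Among the 9335 other genes bright enough to compare, the probes whose pattern over the 18 arrays was most like that of Cebpa were Ckap4, an endoplasmic reticulum membrane protein (Pearson r = 0.993), Ccr1, a chemokine receptor (0.984), Dgat1, an enzyme of triglyceride synthesis (0.984), Tmcc3 (0.981) and Fcgr3, a receptor for IgG (0.981). Ckap4 averaged 100.3 in treated floxed, 355 in untreated floxed, 481 in treated wild-type, 548 in untreated wild-type and 527 in fresh basophils, and 90.4 in mast cells. Like Cebpa it stood between the extremes in untreated floxed basophils. The most opposite patterns belonged to Pwwp2a (-0.986), Rtl5 (-0.986), Mgmt, a DNA repair enzyme (-0.982), Isoc2b (-0.98) and B3gnt9 (-0.97). Of these 9335 genes, 131 correlated with Cebpa above 0.9 and 103 below -0.9. These correlations share the 6 groups and the normalisation and are given as descriptions.

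Cebpb, a member induced by cytokines and by lipopolysaccharide in macrophages, was present in all basophil groups and lowest in mast cells. Its intensities were 1264, 1211 and 989 in treated floxed basophils and 563, 732 and 719.5 in untreated floxed basophils. Treated wild-type basophils had 2115, 2075 and 1886, and untreated wild-type basophils 1008, 945 and 922. The values were 1513, 1182 and 1324 in fresh basophils and 113, 123 and 115 in mast cells. Treated arrays lay above untreated arrays within each genotype, and floxed arrays below wild-type arrays within each treatment. In the order of means, fresh basophils overlapped treated floxed basophils, and these overlapped untreated wild-type basophils. Treated wild-type basophils, untreated floxed basophils and mast cells each stood apart.

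Cebpb was 57% as bright in treated floxed as in treated wild-type basophils, 1155 ± 146 against 2025 ± 122 (SD, n = 3 each), a log2 difference of -0.81 ± 0.12 (SE, adjusted p = 4.73e-05). The drug went with higher Cebpb in both genotypes, by 0.77 ± 0.12 in floxed (adjusted p = 0.000144) and by 1.07 ± 0.12 in wild-type basophils (adjusted p = 8.61e-06). The difference between these drug effects, -0.30 ± 0.17, did not pass the test (adjusted p = 0.308), with a 95% interval from -0.65 to 0.06. Already without the drug, floxed basophils differed from wild-type basophils by -0.51 ± 0.12 (adjusted p = 0.0062). With arrays scaled to a common median this last difference was -0.31 (adjusted p = 0.301). Fresh basophils exceeded mast cells by 3.35 ± 0.12 (adjusted p = 2.6e-13), and treated floxed basophils exceeded mast cells by 3.13 ± 0.12 (adjusted p = 1.32e-12). The genes most like Cebpb over the 18 arrays were Usf3 (r = 0.985), Ostm1 (0.976), Arhgap15 (0.969), Afdn (0.968) and Mapkapk2, a kinase of the p38 stress pathway (0.965). Of the 9335 genes compared with it, 137 correlated with Cebpb above 0.9.

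Cebpd, which encodes an acute-phase and stress-induced member, was dim in every group. It had 41.7, 32.2 and 20.7 in treated floxed basophils and 72.1, 85.0 and 90.1 in untreated floxed basophils. In wild-type basophils it had 67.4, 68.9 and 66.4 with the drug and 79.1, 55.4 and 58.3 without it. Fresh basophils read 126, 98.9 and 125, and mast cells 13.2, 8.67 and 38.3. Fresh basophils were above all other arrays, the wild-type groups overlapped each other, and treated floxed basophils overlapped mast cells near the background limit. Treated floxed basophils averaged 31.5 ± 10.5 against 67.6 ± 1.28 in treated wild-type basophils (SD, n = 3 each), a log2 difference of -0.84 ± 0.23 (SE, adjusted p = 0.00858). Without the treated floxed replicate 3 this difference missed the threshold (adjusted p = 0.052). With the drug Cebpd was lower by 1.07 ± 0.23 on the log2 scale in floxed basophils (adjusted p = 0.00233). In wild-type basophils the drug effect was 0.07 ± 0.23 (adjusted p = 0.887). The difference between the drug effects was -1.14 ± 0.32 (adjusted p = 0.0264), and it lost the call without any 1 of 6 arrays. These were treated floxed replicate 3, untreated floxed replicates 2 and 3, treated wild-type replicate 2 and untreated wild-type replicates 2 and 3, with an adjusted p of up to 0.0705. Fresh basophils exceeded mast cells by 1.96 ± 0.23 (adjusted p = 1.57e-06). The most similar genes were Gsta4 (r = 0.922), Igfbp7 (0.916), Faah (0.916), Itga2 (0.915) and Gpr183 (0.914), and 14 genes correlated above 0.9.

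Cebpe, a factor of late granulocyte maturation needed for secondary granules, was brightest in fresh basophils and at background in mast cells. Its intensities were 227, 242 and 180.4 in treated floxed basophils and 259, 286 and 293 in untreated floxed basophils. They were 146, 120.2 and 129.9 in treated wild-type basophils and 169.8, 177 and 198 in untreated wild-type basophils. Fresh basophils had 889, 731 and 788, and mast cells 14.6, 6.50 and 9.61. Only treated floxed and untreated wild-type basophils overlapped among neighbours in the order of means. Treated floxed basophils averaged 217 ± 32.3 against 132 ± 13.2 in treated wild-type basophils (SD, n = 3 each), a log2 difference of 0.65 ± 0.13 (SE, adjusted p = 0.000763). The same direction was present without the drug, where floxed basophils averaged 279 ± 18.1 against 182 ± 14.9 in wild-type basophils (SD, n = 3 each), a difference of 0.58 ± 0.13 (adjusted p = 0.00407). The drug effect was -0.42 ± 0.13 in wild-type basophils (adjusted p = 0.0262) and -0.35 ± 0.13 in floxed basophils (adjusted p = 0.0649). The difference between them was 0.07 ± 0.18 (adjusted p = 0.881), with a 95% interval from -0.32 to 0.45.

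The wild-type drug effect on Cebpe was -0.23 (adjusted p = 0.407) with arrays scaled to a common median, and it also lost the call without replicate 2 or 3 of either wild-type group. Untreated wild-type basophils after 5 days of culture had 22.6% of the Cebpe intensity of fresh basophils, a difference of -2.05 ± 0.13 (adjusted p = 8.84e-10). Culture and the RosaYFP/creER alleles cannot be told apart in that comparison. Against mast cells, Cebpe was at least 26.8-fold higher in fresh basophils (adjusted p = 3.26e-15) and at least 7.22-fold higher in treated floxed basophils (adjusted p = 3e-12). Its pattern was closest to those of Il4 (r = 0.99), Dach1 (0.99), Cd1d1 (0.986), Nrarp (0.983) and Prg2, the major basic protein of eosinophil granules (0.983). The sum of 5 eosinophil markers, Prg2 among them, was 48708 to 50084 in fresh basophils and 349 to 402 in mast cells. In treated floxed basophils it was 10831 to 11140, against 3693 to 3951 in treated wild-type basophils. Prg2 made up most of both sums: of the 5 markers, 3 (Prg2, Prg3 and Epx) were higher and 2 (Alox15 and Siglecf) lower in treated floxed than in treated wild-type basophils. Without the drug 1 was higher, 2 were lower and 2 were not called in floxed against wild-type basophils. Of all probes 30.7% were called between the genotypes with the drug and 15.8% without it. The part of eosinophils in the Cebpe differences was not tested.

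Cebpg, the ubiquitous member that lacks an activation domain and pairs with other zippers such as ATF4, was the only one whose difference between fresh basophils and mast cells did not pass the test. It had 164, 166 and 153 in treated floxed basophils and 86.7, 95.9 and 73.4 in untreated floxed basophils. Treated wild-type basophils had 117, 88.7 and 94.2, and untreated wild-type basophils 122, 131 and 115. The values were 67.3, 70.2 and 58.3 in fresh basophils and 80.7, 65.2 and 57.5 in mast cells. Treated floxed basophils lay above every other array, and each further neighbour in the order of means overlapped the next. Treated floxed basophils averaged 161 ± 6.89 against 100.1 ± 15.2 in treated wild-type basophils (SD, n = 3 each), a log2 difference of 0.62 ± 0.12 (SE, adjusted p = 0.000612). Against untreated floxed basophils Cebpg rose by 0.81 ± 0.12 (adjusted p = 8.52e-05), while the drug effect in wild-type basophils was -0.26 ± 0.12 (adjusted p = 0.142). The difference between the drug effects was called, at 1.07 ± 0.17 (adjusted p = 0.000353). Without the drug the sign was the other way, with floxed basophils lower than wild-type basophils at -0.46 ± 0.12 (adjusted p = 0.0135), a call lost with arrays scaled to a common median and without untreated floxed replicate 3 or untreated wild-type replicate 2. Fresh basophils and mast cells differed by -0.04 ± 0.12 (adjusted p = 0.845), with a 95% interval from -0.29 to 0.21. Without normalisation between arrays that value was 0.33 (adjusted p = 0.0482). After culture, untreated wild-type basophils exceeded mast cells in Cebpg by 0.73 ± 0.12 (adjusted p = 7.07e-05). The nearest patterns were those of Stc2 (r = 0.93), Clca1 (0.921), Frzb (0.915), Chst1 (0.914) and Rdh10 (0.913), and 6 genes correlated with Cebpg above 0.9.

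**Figure D2:**
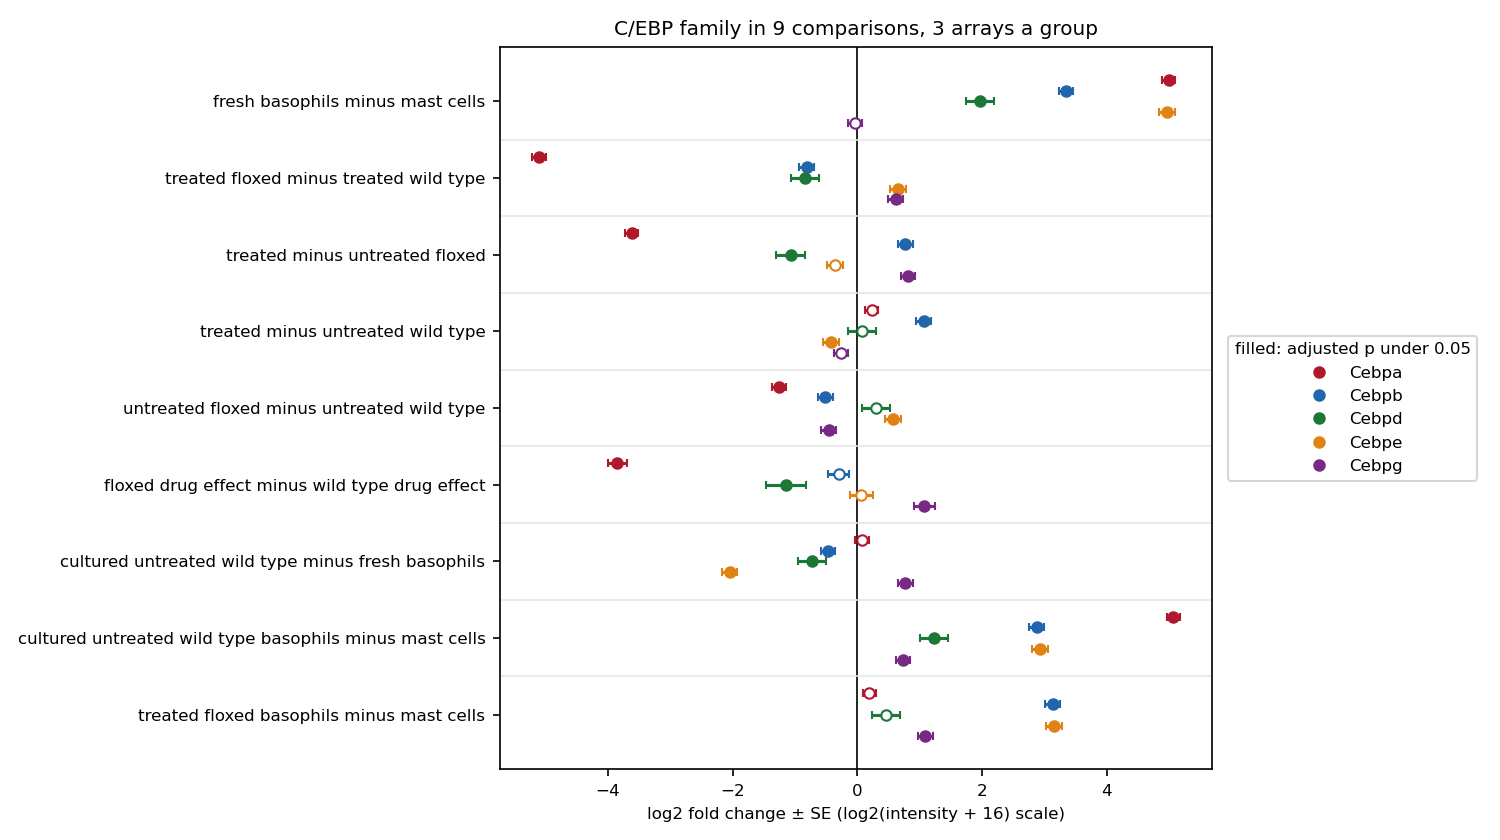
Log2 differences of the 5 members in each comparison, with bars for the SE and filled points where the adjusted p was under 0.05. Cebpa and Cebpg lie on opposite sides of 0 for the difference between drug effects, at -3.85 and 1.07.

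Side by side, the family split by comparison. Between fresh basophils and mast cells 4 of 5 members were called, all higher, where 40.6% of all probes were called in either direction and 18.3% were called higher. Between untreated wild-type basophils and mast cells all 5 were higher, where 39.2% of probes were called and 16.9% were called higher. Between treated floxed basophils and mast cells 3 of 5 were called (Cebpb, Cebpe and Cebpg), against 35.4% of probes. Cebpd, at 0.46 ± 0.23 (adjusted p = 0.133), was called at 0.81 without mast cell replicate 3 (adjusted p = 0.00171), and without normalisation between arrays all 5 were called. Cultured untreated wild-type and fresh basophils differed in 4 of 5 members, against 34.9% of probes, with Cebpg higher in culture by 0.77 ± 0.12 and Cebpb, Cebpd and Cebpe lower. The Cebpd call was lost without replicate 1 or 3 of fresh basophils or replicate 2 or 3 of untreated wild-type basophils.

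Treated floxed and treated wild-type basophils differed in all 5 members, Cebpa, Cebpb and Cebpd lower and Cebpe and Cebpg higher, where 30.7% of probes were called. Treated and untreated cells differed in 4 of 5 members in floxed basophils, against 19.6% of probes, and in 2 of 5 in wild-type basophils, against 21.3% of probes. Without the drug 4 of 5 members differed by genotype, against 15.8% of probes. The difference between drug effects was called for Cebpa, Cebpd and Cebpg, 3 of 5, against 12.6% of probes. Comparisons among the cultured groups share arrays, so their counts are not independent of each other. Expressed probes were called more often than dim ones: among the 16673 probes above background in a group, the shares were 59.2% for fresh basophils against mast cells, 46.3% for treated floxed against treated wild-type basophils and 19.3% for the difference between drug effects.

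Correlations between members changed with the arrays considered. The Pearson correlation over all 18 arrays was 0.818 between Cebpa and Cebpd, 0.653 between Cebpa and Cebpb, 0.583 between Cebpa and Cebpe and -0.15 between Cebpa and Cebpg. Over the 12 cultured arrays the same pairs had 0.785, 0.175, -0.433 and -0.658, in that order. Cebpb and Cebpe, at 0.759 over 18 arrays, had -0.823 over the cultured 12. The points share groups, arrays and normalisation, so these are descriptions.

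Cebpa and Cebpg lie near each other on chromosome 7. On GRCm38.p6 Cebpa spans chr7:35119293-35121928 and Cebpg spans chr7:35046422-35056566, 62727 bp apart, whereas Cebpb (chr2:167688915-167690432), Cebpd (chr16:15887286-15889545) and Cebpe (chr14:54710363-54712174) lie on other chromosomes. Of the 10 annotated genes nearest to Cebpa, 5 on each side, only Cebpg had a probe. The 5 nearest genes with a probe on each side, which reach farther out, were therefore examined, a choice made after seeing the data. Among these 10 genes the difference between drug effects ran from -0.22 to 1.07, and only Cebpg was called, where 12.6% of all probes were. Pepd, which encodes prolidase and lies on the Cebpg side, was lower with the drug in both genotypes, at -0.69 in floxed basophils (adjusted p = 1e-04) and at -0.88 in wild-type basophils (adjusted p = 1.2e-05). Chst8, Slc7a10, Lrp3 and Gpatch1 were at background in every group.

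**Figure D3:**
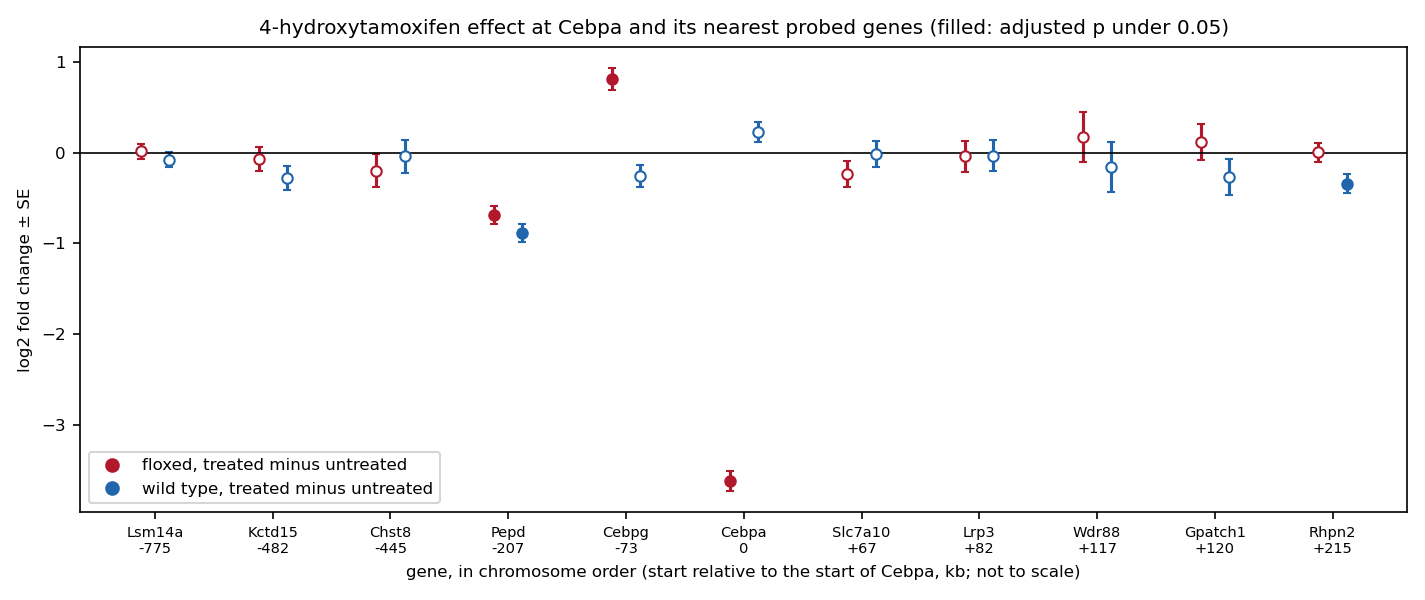
Log2 drug effect (treated minus untreated) with bars for the SE and filled points where the adjusted p was under 0.05, for Cebpa and the 10 nearest genes with a probe, in order along chromosome 7, with floxed basophils left of wild-type basophils at each gene. Apart from Cebpa, only Cebpg differed between the genotypes by the test, at 0.81 in floxed and -0.26 in wild-type basophils.

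Ddit3 encodes CHOP, the stress-induced C/EBP relative that dimerises with the family. It averaged 2122 ± 88.2 in treated floxed basophils, 1472 ± 40.4 in untreated floxed basophils, 2483 ± 229.5 in treated wild-type basophils and 2257 ± 60.6 in untreated wild-type basophils (SD, n = 3 each). In fresh basophils it averaged 587 ± 31.2, against 1433 ± 188 in mast cells (SD, n = 3 each), and was lower at -1.26 (adjusted p = 7.57e-09). After culture, untreated wild-type basophils exceeded fresh basophils by 1.92 (adjusted p = 4.92e-11). The drug effect on Ddit3 was 0.52 in floxed basophils (adjusted p = 0.000693) and 0.13 in wild-type basophils (adjusted p = 0.392). The difference between drug effects was 0.39 and did not pass the test (adjusted p = 0.0727). It was called without normalisation between arrays (0.58, adjusted p = 0.00831), with an offset of 50, without the dimmest 30% of probes and with a trend. With arrays scaled to a common median it was 0.13 (adjusted p = 0.804), and the floxed drug effect was 0.28 (adjusted p = 0.314).

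Ddit3 and dimer partners from other bZIP families were described together through a list of 18 genes, 17 of them with a probe. Treated floxed against treated wild-type basophils, 5 were higher and 4 lower, where 30.7% of all probes and 46.3% of those above background in a group were called, with a median log2 difference of 0.09 and a median of all probes of 0.00. With arrays scaled to a common median 3 were higher and 4 lower. Nfil3, a repressor of the PAR zipper group, fell by 1.90 to 610 ± 17.9, against 2329 ± 189 in treated wild-type basophils (SD, n = 3 each, adjusted p = 1.23e-10). Batf, an AP-1 partner, rose by 1.85 to 3431 ± 516, against 934 ± 31.5 (SD, n = 3 each, adjusted p = 1.48e-08). Fos was lower at -1.68 and Hlf at least 2.13-fold higher. In fresh basophils against mast cells 10 of the 17 were higher and 5 lower, where 40.6% of all probes and 59.2% of those above background were called. Fos, an immediate-early gene, was at background in mast cells and at least 598-fold higher in fresh basophils, and Batf was lower at -2.77.

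Regulators of the family held 16 genes with a probe, among them the kinases, ligases and inhibitors known to act on or beside C/EBP proteins. Treated floxed against treated wild-type basophils, 6 were higher and 6 lower, with a median of -0.06 and 30.7% of all probes (46.3% of those above background) called. Id1, an inhibitor of basic helix-loop-helix factors, averaged 731 ± 44.6 in treated floxed and 9882 ± 1473 in treated wild-type basophils (SD, n = 3 each), a difference of -3.72 (adjusted p = 1.63e-13). Id2, its relative, went the other way by 1.48 (adjusted p = 1.37e-08). Trib3, a pseudokinase of the Tribbles family, was lower at -1.36, and Fbxw7, part of a ubiquitin ligase that targets C/EBPα, was higher by 1.09. In fresh basophils against mast cells 4 regulators were higher and 7 lower, where 40.6% of all probes (59.2% of those above background) were called, and Id1 was higher by 5.62. That split was 7 higher and 5 lower without normalisation between arrays.

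Other myeloid factors that work beside C/EBP proteins had 16 genes, all with a probe. Treated floxed against treated wild-type basophils, 5 were higher and 7 lower, with a median of -0.19 and 30.7% of all probes (46.3% of those above background) called. Mitf, the mast cell factor, averaged 1736 ± 102 in treated floxed and 429 ± 26.8 in treated wild-type basophils (SD, n = 3 each), a difference of 1.98 (adjusted p = 1.29e-11). It was 402 ± 11.5 in untreated floxed, 587 ± 15.7 in untreated wild-type and 152 ± 2.06 in fresh basophils, and 4985 ± 445 in mast cells (SD, n = 3 each). Myb, a progenitor factor, was higher by 1.94, and Irf4 (-1.32) and Ikzf1 (-1.14) were lower. The sum of the 7 mast cell markers, Mitf among them, was 68627 to 74203 in treated floxed basophils, against 33155 to 33907 in treated wild-type basophils. Of these markers 5 were higher in treated floxed basophils, 1 was lower and 1 was not called. Their sum was 9961 to 11328 in fresh, 25363 to 27832 in untreated wild-type and 19968 to 20094 in untreated floxed basophils. In untreated wild-type against fresh basophils 6 of the 7 were higher and 0 lower, where 34.9% of probes were called. With the drug 4 were higher and 2 lower in wild-type basophils, where 21.3% of probes were called. In fresh basophils against mast cells 7 factors were higher and 5 lower, where 40.6% of all probes (59.2% of those above background) were called. That split was 11 and 3 without normalisation between arrays.

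Granulocyte genes known as C/EBP targets, such as granule proteins and the receptors for growth factors and chemokines, had 24 of 25 listed genes with a probe. Fresh basophils against mast cells, 23 were higher and 0 lower by limma, with a median log2 difference of 4.16 where the median of all probes was -0.04 and 18.3% of probes were called higher. Of probes above background in a group, 59.2% were called in either direction. Camp, a granule antimicrobial peptide, was higher by 8.38, S100a9 by 7.43 and Mpo, myeloperoxidase, by 7.42. Treated floxed against treated wild-type basophils, 15 were lower and 3 higher, with a median of -1.16 and 14.9% of all probes called lower. In either direction 46.3% of probes above background in a group were called. Cxcr2, a chemokine receptor, averaged 232 ± 7.42 in treated floxed and 4185 ± 70.8 in treated wild-type basophils (SD, n = 3 each), a difference of -4.08 (adjusted p = 3.19e-15). Mpo averaged 98.9 ± 10.7 against 1495 ± 49.1 (SD, n = 3 each), a difference of -3.72 (adjusted p = 3.37e-14), and Prtn3 and S100a9 were lower at -2.87 and -2.72. The 3 genes that went the other way were Ctsg (0.98), Mmp9 (0.66) and Mmp8 (0.43), named after their values were seen. Several of these genes are also in the neutrophil marker list whose sums are given above, of which 6 of 7 were lower in treated floxed basophils. All 5 monocyte and macrophage markers were lower too, summing to 3080 to 3379 in treated floxed and 8346 to 9327 in treated wild-type basophils. The part of these cells in the differences was not tested.

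The difference between drug effects was called for 11 of the 24 granulocyte targets, 10 lower and 1 higher, where 6.46% of all probes were called lower. In either direction 19.3% of probes above background in a group were called. Without the drug, floxed basophils had 10 lower and 2 higher than wild-type basophils, with a median of -0.35 and 7.27% of probes called lower. Ltf, lactoferrin, was lower at -1.77, S100a9 at -1.35 and Csf1r, the receptor for M-CSF, at -1.34. In the same comparison 4 of 7 neutrophil markers were lower, summing to 3555 to 3992 in untreated floxed and 8193 to 9858 in untreated wild-type basophils. Of the 5 monocyte and macrophage markers 4 were lower and 1 higher, with a sum of 6890.0 to 8270.1 against 8774 to 10054. Their median log2 difference was -1.78, against -1.59 between treated genotypes. For the difference between drug effects 2 of the 5 were higher and 1 lower, with a median of 0.18. After culture, untreated wild-type basophils had 18 of these targets lower and 3 higher than fresh basophils, with a median of -1.59 and 17.6% of probes called lower. There 6 of 7 neutrophil markers were lower, summing to 8193 to 9858 in untreated wild-type and 81166 to 84067 in fresh basophils. All 5 eosinophil markers were lower as well, with a median of -3.29. The part of other cells in these shifts was not tested.

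**Figure D4:**
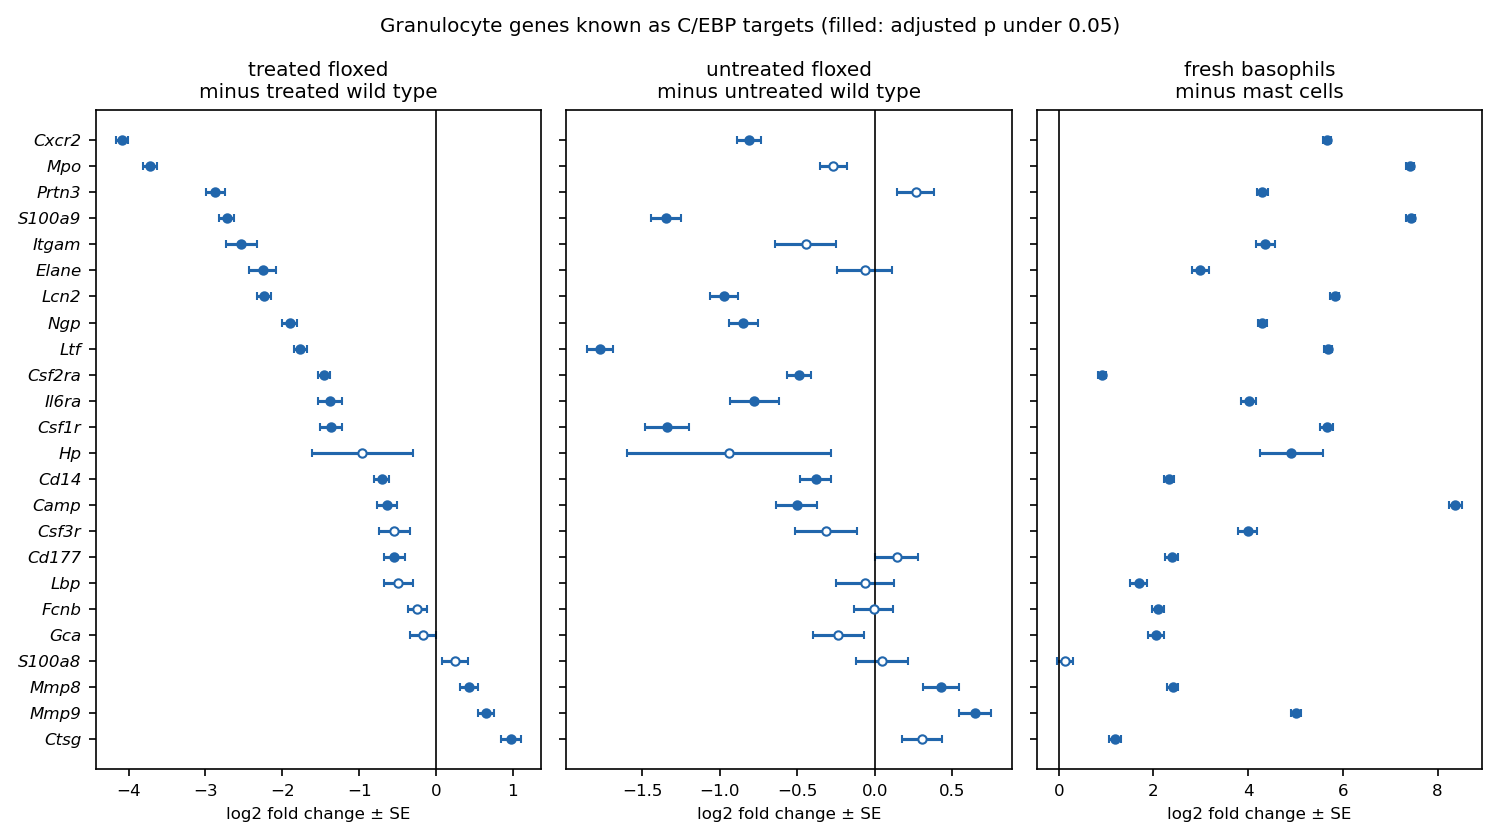
Log2 differences of the granulocyte C/EBP targets with a probe, for treated floxed minus treated wild-type basophils, untreated floxed minus untreated wild-type basophils and fresh basophils minus mast cells (each panel with its own axis), with bars for the SE and filled points where the adjusted p was under 0.05. In the first panel 15 were lower and 3 higher, from Cxcr2 at -4.08 to Ctsg at 0.98.

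Inflammatory C/EBP targets, made up of cytokines, chemokines and enzymes, had a probe for all 19 listed genes. Fresh basophils against mast cells, 12 were higher and 3 lower, with a median of 0.63, where 40.6% of all probes (59.2% of those above background) were called and 18.3% were called higher. Cxcl2, a neutrophil chemokine, was at least 97.5-fold higher, Ptgs2, the inducible cyclooxygenase, at least 42.5-fold higher and Il4 at least 36.7-fold higher. Treated floxed against treated wild-type basophils, 3 were higher and 7 lower, with a median of -0.29 and 30.7% of all probes (46.3% of those above background) called. Ccl2 (-1.50), Ccl3 (-1.20) and Arg1 (-0.94) were lower and Il13 was higher by 1.50. Il4, whose pattern over the arrays resembled that of Cebpe, averaged 191 ± 26.6 in treated floxed and 160.4 ± 8.99 in treated wild-type basophils (SD, n = 3 each) and did not pass the test (adjusted p = 0.214).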

How the data were processed

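Total RNA of 18 mouse samples was hybridised to 1-colour microarrays labelled with Cy5, per the labels' protocols. The authors deposited one table of probe intensity values on a linear scale, 1 column per array. No scanner, software or earlier correction was named in the sources used here, and neither labels nor headers name slides or scan batches. Gene symbols were those of GEO's annotation of the array, with 1 symbol for 21876 of 26423 probes, no symbol for 4547 and several for 0. All value columns were used.

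Values were quantile-normalised over 18 arrays, 16 was added, and log2 values were fitted with limma 3.58.1 (R 4.3.3) as 6 group means, with 9 contrasts, eBayes and Benjamini-Hochberg adjustment over all probes, at 0.05. In this fit each probe has 1 estimate of the spread, shared by all 6 groups and drawn by eBayes towards a common value. The precision is limited by the 3 arrays per group. A probe under 30 on all arrays of a group has only a bound there, and its fold is written as at least the brighter mean over the limit. Genes with several probes used the brightest. The code was tested on simulated data.

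The members and gene lists were chosen with earlier results of these data known. Up to 4 called genes per list and comparison with the greatest differences were named, and 5 genes per member by Pearson correlation among genes reaching a group mean of 100. Alternatives were other scalings, an offset of 50, dropping the dimmest 30% of probes and a mean-variance trend. Further ones were a fit on the compared groups, a replicate block, averaging the probes of a gene and leaving out each array. Same-numbered arrays did not deviate together: 9 of 45 pairs correlated above 0.1, with a median of -0.003. Promoters came from RefSeq on GRCm38.p6, and a motif was searched on both strands.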

Additional observations from a re-analysis of the deposited data

Results flagged for a closer look

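The drug effect differed between floxed and wild-type basophils, by limma's test of the difference itself, for 3 members and for further genes of the lists. Given here are the members and the 18 such genes that are among the up to 4 named per list for fresh basophils against mast cells or for treated floxed against treated wild-type basophils. Of all probes 12.6% were called for this difference, and 19.3% of those above background in a group. Genes named by their size between treated genotypes share the treated arrays with this difference. Calls among them are therefore not independent of that choice. Values are the floxed minus the wild-type drug effect on the log2 scale. Among the members they were -3.85 for Cebpa, -1.14 for Cebpd and 1.07 for Cebpg. Among zipper partners they were 1.89 for Batf, -1.22 for Nfil3 and 1.11 for Hlf. Among regulators they were -2.71 for Id1, 1.64 for Id2 and 0.78 for Fbxw7. Among myeloid factors they were 2.51 for Mitf, 2.35 for Myb, -0.94 for Irf4 and -0.68 for Ikzf1. Granulocyte targets gave -3.45 for Mpo, -3.27 for Cxcr2, -3.13 for Prtn3, -1.37 for S100a9 and -1.27 for Lcn2. Inflammatory targets gave -1.03 for Ptgs2, -0.58 for Ccl3 and 0.95 for Il13. Groups of 3 arrays are too small for a search for single outlying arrays.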

How the results depend on the processing

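Dropping dim probes, the trend, the replicate block and averaging the probes of a gene cannot move a member's log2 difference, only its p-value. Outside the difference between drug effects, most left-out arrays belonged to groups that were not compared. Both kinds are in the counts below, which are therefore no clean measure of robustness. Of 1170 values of members under an alternative, 1132 kept their direction and side of the threshold. A further 9 changed sign without a call on either side, 20 lost a call, 8 gained one and 1 changed sign and gained a call. The last was Cebpg in fresh basophils against mast cells, at 0.33 without normalisation between arrays. That setting moved the median of all probes to 0.16 for this comparison, 0.11 for untreated wild-type basophils against mast cells and 0.12 for the difference between drug effects. It also gave 0.35 for Cebpa and 0.58 for Cebpd in treated floxed basophils against mast cells, both then called (adjusted p = 0.0326 and 0.046). Median scaling, which moved the median of the difference between drug effects to -0.13, ended the calls of Cebpe for the wild-type drug effect (-0.23) and of Cebpb (-0.31) and Cebpg (-0.33) between untreated genotypes. It left 3556 probes called for the wild-type drug effect, against 5624, and 1893 for the difference between drug effects, against 3338. The floxed drug effect on Cebpe was called with an offset of 50 (-0.31), without the dimmest 30% of probes (-0.35) and with a trend (-0.35). The 9 sign changes without a call concerned Cebpa for the wild-type drug effect (-0.08 without normalisation) and between cultured and fresh basophils (-0.14 without normalisation, -0.09 with median scaling), and Cebpe for the difference between drug effects (-0.19 with median scaling, -0.015 without treated floxed replicate 2). They also concerned Cebpd for the wild-type drug effect (-0.003 without normalisation, -0.008 without untreated wild-type replicate 2) and Cebpg between fresh basophils and mast cells (0.026 without fresh replicate 3, 0.071 without mast cell replicate 1).

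Leaving out single arrays gave -0.43 to -0.24 for the floxed drug effect on Cebpe and -0.49 to -0.36 for the wild-type one. Cebpd ranged from -0.99 to -0.66 between treated genotypes, from -1.29 to -0.965 for the difference between drug effects, from -0.86 to -0.65 between cultured and fresh basophils and from 0.23 to 0.81 between treated floxed basophils and mast cells. Cebpg ranged from -0.53 to -0.37 between untreated genotypes. With correlations of group means, 3 of the 5 genes named for Cebpb and 2 of the 5 named for Cebpd, for Cebpe and for Cebpg were shared. The replicate block changed no call of a member and left 7879 probes called between treated genotypes, against 8116. Cebpd lay near background, which limits its calls. The cause of each change was not tested.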
